A study of Mus musculus with 32 samples.

Results

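Cytosolic ribosomal protein genes were examined in frontal cortex of mice overexpressing IL6 and of wild-type mice, profiled by 3'Pool-seq, a pooled RNA-seq method that reads the 3' ends of mRNAs. Members were taken by symbol: Rpl or Rps followed by digits and at most one letter a, x or l, together with Rps3a1, Rplp0, Rplp1, Rplp2 and Rpsa. Of 33000 genes in the count table, 82 symbols matched. One of them, Rpl10l, had 0 counts in all 32 libraries, and the other 81 genes were kept (48 of the large subunit and 33 of the small subunit). All mice were 3 months old. The 8 groups crossed 2 genotypes, C57BL/6 wild type (WT) and homozygous GFAP-IL6, with 4 amounts of total RNA put into reverse transcription (50, 10, 1 and 0.5 ng), and each group held 4 libraries. In GFAP-IL6 mice the Gfap promoter, active in astrocytes, drives the Il6 transgene. No other agent or allele is given for either genotype. The labels do not say whether libraries of the same replicate number at different RNA inputs came from the same RNA. They also do not say in which pool each library was prepared. The main fits took all libraries as independent, so p-values measure the spread between libraries. A difference between inputs cannot be told apart from one between pools.

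Each cytosolic ribosome joins a large and a small subunit, and nearly every ribosomal protein is present once in it. Most of the genes are expressed in all tissues. The small subunit decodes the mRNA, and the large subunit forms peptide bonds and carries the acidic stalk (Rplp0, Rplp1 and Rplp2) that recruits translation factors. Ribosomal protein mRNAs are short and begin with an oligopyrimidine tract (the TOP motif), through which mTOR signalling and Larp1 control their translation.

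That tract was looked for in the RefSeq start sites of build GRCm38.p6, which held 72 starts for 60 of the 81 genes. A run of 8 or more C or T on the transcribed strand, overlapping the 10 bases on either side of a start, was present in 28 of the 60 genes (46.7%) and in 15.7% of the 26965 other genes of the table. On the opposite strand the shares were 6.67% and 17.4%. The starts below show genes that the later results turn on, each from 10 bases before the start to 20 bases from it on, with the run in capitals.
Rps27 (chr3:90213629-90213658, minus strand): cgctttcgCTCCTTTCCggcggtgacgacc
Rpl15 (chr14:18270967-18270996, minus strand): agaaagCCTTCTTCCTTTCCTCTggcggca
Rps6 (chr4:86857348-86857377, minus strand): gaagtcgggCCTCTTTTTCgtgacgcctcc
Rpl13a (chr7:45128726-45128755, minus strand): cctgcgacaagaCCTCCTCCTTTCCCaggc
Rpl37 (chr15:5116603-5116632, plus strand): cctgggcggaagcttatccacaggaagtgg
Rps3a1 (chr3:86142649-86142678, minus strand): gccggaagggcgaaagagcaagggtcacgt
The windows of Rpl37 and Rps3a1 held no such run. By the gene positions of GENCODE M21, however, the Rpl37 window lay wholly upstream of the gene, and the Rps3a1 gene began upstream of its window. A run at a start outside the windows searched would not be counted in the shares above. Matches of this kind describe letters at annotated starts, and whether transcription began there in these samples was not measured.

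Library totals ran from 261378 to 9840302 counts. They lay between 1064514 and 9840302 at 50 and 10 ng and between 261378 and 2800270 at 1 and 0.5 ng. Il6 had 0 to 1 count in the WT libraries at 50 ng and 4 to 22 in the GFAP-IL6 libraries. At 0.5 ng no library had an Il6 count, and at 1 ng the library labelled WT replicate 3 had 13. The choroid plexus marker list, mainly Ttr, took 0.302% to 0.338% of counts in WT replicate 3 at all 4 inputs. In every other library it took between 0.00255% and 0.0339%. This is a hint, from the data and not from the labels, that same-numbered libraries of one genotype are related, which was not tested. GFAP-IL6 replicate 4 at 50 ng held less of its counts in ribosomal protein genes than the other 31 libraries did.

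The share of counts in the 81 genes was larger at the lower inputs. With 50 ng of RNA it was 2.71% ± 0.271 (mean ± SD, n = 8 libraries), and with 10 ng 3.12% ± 0.231. The 1 ng libraries held 3.31% ± 0.236 and the 0.5 ng libraries 3.30% ± 0.238. In WT it was 2.79% ± 0.170 at 50 ng, with library values of 2.80%, 2.86%, 2.56% and 2.96%. In GFAP-IL6 at 50 ng it was 2.62% ± 0.349, with library values of 2.90%, 2.70%, 2.75% and 2.11%. The genotypes overlapped at every input, and only replicate 4 of GFAP-IL6 fell below the WT values at 50 ng. At 10 ng the means were 3.17% ± 0.243 in WT and 3.07% ± 0.241 in GFAP-IL6, and at 1 ng they were 3.32% ± 0.268 and 3.29% ± 0.241 (n = 4 each). At 0.5 ng they were 3.31% ± 0.257 in WT and 3.29% ± 0.257 in GFAP-IL6. Within the total, the large subunit took 1.56% ± 0.159 and the small subunit 1.15% ± 0.113 at 50 ng (n = 8), against 1.81% ± 0.148 and 1.496% ± 0.109 at 0.5 ng. These shares are given as a description, with no test.

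**Figure D1:**
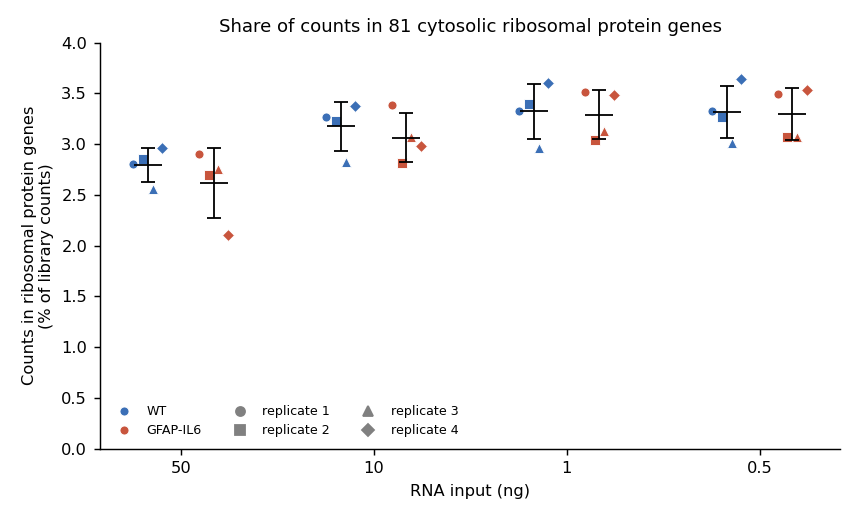
Percent of each library's counts that fell in the 81 cytosolic ribosomal protein genes (y axis), by RNA input in ng (x axis) and genotype (colour). Marker shape gives the replicate number, and bars give the mean ± SD of 4 libraries. The 50 ng libraries lie between 2.11% and 2.96%, and the 0.5 ng libraries between 3.02% and 3.64%.

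The members' own levels spanned a wide range. At 50 ng, 78 of the 81 genes had a mean above 40 CPM (counts scaled to a common library total) and 73 a mean above 100 CPM. CPM is not divided by length here, since each mRNA is read at its 3' end, so ranks by CPM and by CPM per kilobase of transcript are both given. Rps14, a small-subunit protein at chr18:60747098-60778546, had the most counts, with 1370.1 CPM ± 159 (SD, n = 8). It ranked 1 by CPM and 2 per kilobase. Rplp1 of the stalk followed with 880 CPM ± 112, ranking 2 by CPM and 1 per kilobase. Rpl13a (792 CPM ± 59.3), a large-subunit protein also known to bind certain mRNAs once released from the ribosome, ranked 3 by CPM and 11 per kilobase. Rps3 (767 CPM ± 116), at the mRNA entry site and also known as a DNA repair endonuclease, ranked 4 and 31. Rpl4 (666 CPM ± 131), which lines the peptide exit tunnel, ranked 5 and 27. Division by annotated length moved the short mRNAs of Rps27, Rps21 and Rps29 to ranks 3, 4 and 5 from 12, 8 and 11. For counts of 3' ends this division is not a correction. The 5 genes with the most counts held 16.5% of the members' counts at 50 ng. Within single libraries at 50 ng, Rps14 exceeded Rplp1 and Rps3 exceeded Rpl4 in 8 of 8, whereas Rplp1 exceeded Rpl13a in 6 of 8 and Rpl13a exceeded Rps3 in 6 of 8, so the order of Rplp1, Rpl13a and Rps3 varied between libraries.

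Tissue-restricted paralogs lay at the bottom. Rpl3l, the form of Rpl3 known from striated muscle, had 17 counts over the 8 libraries at 50 ng and 0 at 0.5 ng. Rpl39l, known from testis, had 10 and 0 counts. Rpl10l, likewise known from testis, had none anywhere, and 3 counts corresponded to between 0.305 and 11.5 CPM depending on the library. These genes did not pass the filter on low counts in any comparison, so 79 of the 81 genes were tested in each. Rps4l, a paralog of Rps4x, was the lowest gene tested, at 18.8 CPM ± 3.94 at 50 ng (n = 8). Its X-linked paralog Rps4x stood at 144 CPM ± 17.6. Rps27l, a p53-responsive paralog of Rps27, stood at 88.3 CPM ± 13.7, against 593 CPM ± 68.9 for Rps27. Reads of such paralogs, and of the many processed pseudogenes of this family, can be assigned only where they differ in sequence. Rows for pseudogenes named after a member, 19 in all, held 0.0441% to 0.103% as many counts as the members in each library. Pseudogenes under names of another form were not summed, so this share covers the named rows only. Reads aligning to several places were not counted, and how many each member lost in this way is not known here.

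The order of the members by CPM was much the same at all inputs. Across the 79 genes above 1 CPM, Spearman's rho between the mean CPM at 50 ng and that at 10 ng was 0.987, and it was 0.952 for 1 ng and 0.938 for 0.5 ng. Genes are not independent replicates, and these values describe the libraries.

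The first comparison, GFAP-IL6 against WT, asks which genes differ in cortex exposed to IL6. No ribosomal protein gene passed an adjusted p of 0.05 at 50 ng, with an edgeR quasi-likelihood test over all genes and Benjamini-Hochberg (BH) adjustment. Among all 11773 genes tested, 0.28% were called higher and 0% lower. The members' estimates were small and nearly all on one side: 78 of 79 log2 fold changes were below 0, with a median of -0.14 and a range from -0.27 to 0.02, while 49.6% of all genes tested were above 0. No member reached an unadjusted p of 0.05, against 5.63% of all genes tested, and DESeq2 called 0 members at each input. In no member did the 4 libraries of one genotype all lie beyond the other 4, against 2.17% of all genes with GFAP-IL6 higher and 1.16% with GFAP-IL6 lower. The 95% intervals of the 79 genes all lay between -0.69 and 0.41, and these bounds limit the differences that the data allow. In bulk tissue, fewer cells of a type and less RNA per cell cannot be told apart.

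This one-sided shift leaned on one library. Without GFAP-IL6 replicate 4 the median at 50 ng was -0.05 and 26 of the members lay above 0. The lowest estimates were those of Rps6, the small-subunit target of S6 kinase (log2 fold change -0.27, standard error (SE) 0.20, adjusted p = 0.837 by edgeR with BH adjustment), Rpl29 (-0.27, SE 0.19) and Rps2 (-0.25, SE 0.17). Without GFAP-IL6 replicate 4 these estimates were -0.061, -0.14 and -0.10. Rps6 measured 223, 235, 187 and 229 CPM in the WT libraries and 243, 198, 194 and 112 CPM in the GFAP-IL6 libraries at 50 ng. Its value of 112 CPM came from replicate 4, and the other 3 GFAP-IL6 values lay within or above the WT range. The one estimate above 0 was that of Rpl17 (0.02, SE 0.17), a protein at the exit of the peptide tunnel. Rps14, the gene with the most counts, measured 1504, 1283, 1359.9 and 1382 CPM in WT and 1476, 1396, 1527 and 1032 CPM in GFAP-IL6, with a log2 fold change of -0.06 (SE 0.16). Again 3 of 4 GFAP-IL6 values lay within or just above the WT range and replicate 4 lay below it.

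At 10 ng no member was called either, while 0.299% of 12043 genes were called higher and 0.0332% lower (edgeR with BH adjustment), with 0.249% of genes called higher by over 2-fold. The median log2 fold change was -0.08, with 70 of 79 genes below 0, a range from -0.25 to 0.08 and 95% intervals all between -0.59 and 0.52. With single libraries left out the median ran from -0.17 (without WT replicate 3) to -0.037 (without WT replicate 4), and the genes above 0, 9 in the full set, numbered 24 without WT replicate 4 and 28 of 78 after thinning. No member reached an unadjusted p of 0.05, against 7.48% of all genes tested. In 2 genes, Rpl15 and Rpl12, all 4 GFAP-IL6 libraries lay below all 4 WT libraries, a pattern that 1.34% of all genes tested showed, while 2.77% showed the opposite one and no member did. Rpl15 measured 159, 177, 147 and 174 CPM in WT and 145, 137, 143 and 137 CPM in GFAP-IL6, with a log2 fold change of -0.25 (SE 0.14). Rpl12, at the base of the stalk, had -0.22 (SE 0.14) and Rpl27 -0.25 (SE 0.16). The largest estimates above 0 belonged to Rps12 (0.08, SE 0.15), Rpl22 (0.05, SE 0.15) and Rpl18 (0.05, SE 0.15), and the sign of all 3 turned when single libraries were left out.

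At 1 and 0.5 ng the members scattered on both sides of 0. The median log2 fold change was -0.02 at 1 ng with 35 of 79 genes above 0, and -0.04 at 0.5 ng with 31 above 0. No member was called at either input by edgeR with BH adjustment, where 0.0323% of 9276 genes were called higher at 1 ng and 0.0117% of 8571 at 0.5 ng. At each input 1.27% of the members reached an unadjusted p of 0.05, against 3.59% of all genes tested at 1 ng and 2.87% at 0.5 ng. At 1 ng this was Rpl21 (0.41, SE 0.18), named after its values were seen. All 4 GFAP-IL6 libraries lay below all 4 WT libraries in 1 member at 1 ng, Rpl35 (also named after its values were seen), and in none at 0.5 ng, and no member showed the opposite. Among all genes tested 1.68% lay above and 1.39% below at 1 ng, and 1.47% and 1.34% at 0.5 ng. Intervals were wider than at the higher inputs and reached from -2.94 to 1.07 at 1 ng and from -1.86 to 2.42 at 0.5 ng. The bounds of -2.94 and 2.42 belonged to Rps4l, the lowest-counted gene tested. Rps4l measured 9.82, 19.1, 20.1 and 38.0 CPM in WT and 10.1, 3.83, 6.13 and 13.2 CPM in GFAP-IL6 at 1 ng, and its estimate there of -1.32 had an SE of 0.78.

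**Figure D2:**
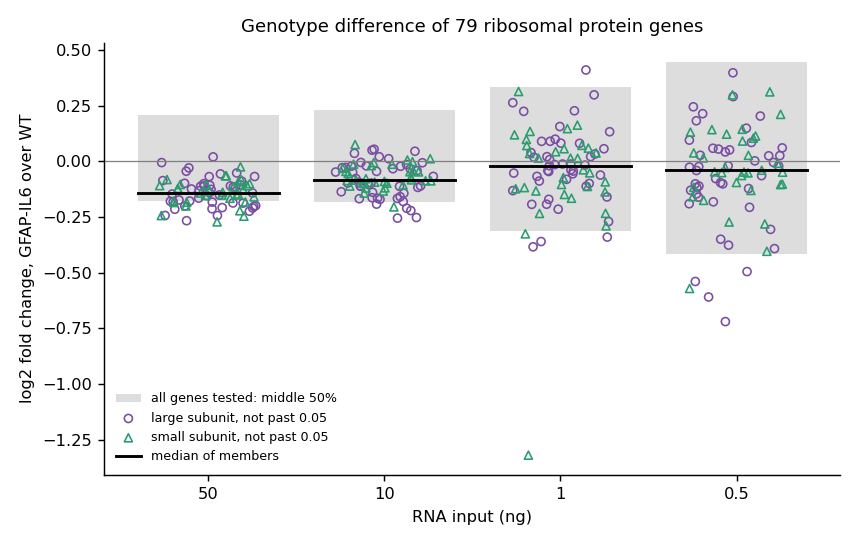
The log2 fold change of GFAP-IL6 over WT (y axis) for each of the 79 ribosomal protein genes tested, at each RNA input in ng (x axis). Circles are large-subunit and triangles small-subunit genes, none of which passed an adjusted p of 0.05, black lines are the members' medians (-0.14, -0.08, -0.02 and -0.04), and grey bands hold the middle 50% of all genes tested.

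Some cell type markers differed by genotype beside these results. The summed share of 11 microglia markers was 0.0719% to 0.0809% of counts in WT and 0.0907% to 0.195% in GFAP-IL6 at 50 ng, and 4 of the 11 were called higher, among them the lysosomal protease gene Ctss at 1.495 log2 units (SE 0.22, adjusted p = 0.00126 by edgeR with BH adjustment). Without GFAP-IL6 replicate 4, 6 of the 11 were called. With all libraries 10 of the 11 lay above 0 and 1 below, P2ry12 with -0.21 (SE 0.20). Of 6 astrocyte markers, Gfap was called higher, by 2.20 (SE 0.27, adjusted p = 0.000113 by edgeR with BH adjustment), and none of the 6 neuron, 4 oligodendrocyte, 2 endothelial, 1 choroid plexus and 3 striatum markers tested was called. The astrocyte markers did not move together: 4 of the 6 lay above 0 and 2 below, the lowest being Aldh1l1 with -0.34 (SE 0.21). Among other markers not called, Flt1 of endothelium had 1.14 (SE 0.30) and Ppp1r1b of striatum -0.72 (SE 0.20). Ttr, which was high in WT replicate 3, had -2.41 (SE 0.85). The part of a changed cell mixture in the members' estimates was not tested.

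The second comparison set each lower RNA input against 50 ng, which asks how the amount of RNA put into reverse transcription affects the measured levels. Here many members were higher at the lower inputs. The fit used the 16 libraries of both inputs with genotype as a covariate. At 10 ng no member was called by edgeR with BH adjustment, and no gene of 12599 was (0% higher, 0% lower). Even so, 44 of the 79 members (55.7%) had an unadjusted p under 0.05, against 4.36% of all genes tested. The members' median log2 fold change was 0.22 with 73 of 79 above 0, and the all-gene median was 0.00. DESeq2 called 12 members higher in the same comparison, among 15 of all genes, with 5270 of 12599 genes given an adjusted p. Without GFAP-IL6 replicate 4 edgeR called 8 members higher, among 10 of 12695 genes. Without replicate 4 of both genotypes it called 3 members higher, among 3 of 12542 genes. A replicate block, with libraries of one number taken as pairs, called 40 members higher, among 104 of 12599 genes, and 51 genes lower. The labels do not state such pairs. In 6 members (Rps9, Rps26, Rplp2, Rpl37a, Rpl36 and Rpl31, some of them named after their values were seen) all 8 libraries at 10 ng lay above all 8 at 50 ng, and in none did they all lie below, against 0.0556% and 0.0159% of all genes tested.

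At 1 ng, 19 of 79 members were called higher and none lower, beside 0.797% of 11290 genes called higher and 0.345% lower. At 0.5 ng, 21 were called higher and none lower, beside 0.85% of 11406 genes higher and 0.833% lower. The members' medians were 0.30 and 0.36, against -0.01 and -0.06 over all genes tested. Members above 0 numbered 68 at 1 ng and 65 at 0.5 ng. All 8 libraries lay above all 8 at 50 ng in 15 members at 1 ng and in 8 at 0.5 ng, against 0.292% and 0.245% of all genes tested. The count at 0.5 ng fell from 21 to 9 when replicate 1 or replicate 4 was left out of both genotypes. Over all genes tested the number called higher fell as well, from 97 to 26 without replicate 1 and to 58 without replicate 4. Both subunits took part: 8 of 46 large-subunit and 11 of 33 small-subunit genes were called at 1 ng, and 9 and 12 at 0.5 ng. Only 1 member exceeded a 2-fold change with an adjusted p under 0.05 at each input (the study's rule for differentially expressed genes), Rpl37 at 1 ng and Rps3a1 at 0.5 ng, beside 0.0974% and 0.0964% of all genes called higher by that rule. The 3 input comparisons share their 50 ng libraries, so their values are set side by side and no overlap between them is counted.

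**Figure D3:**
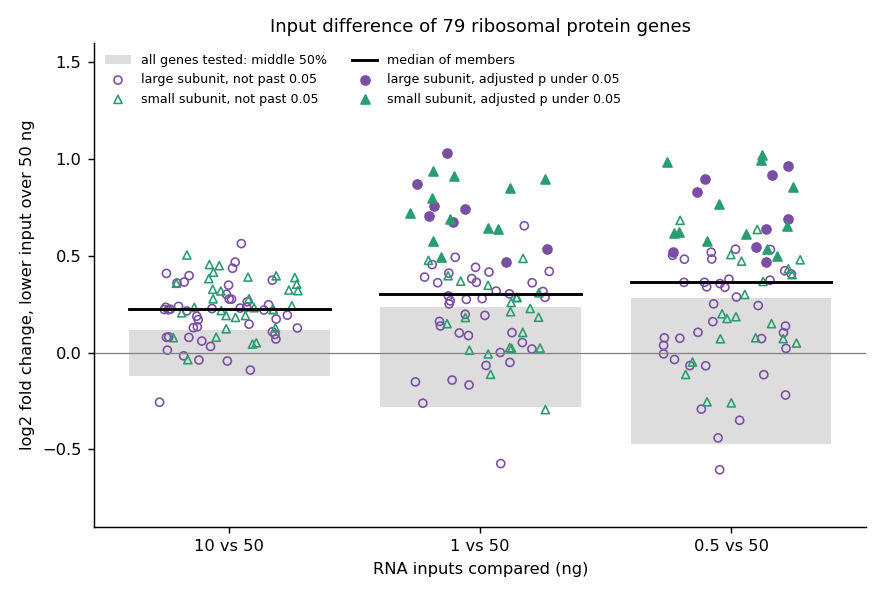
The log2 fold change of each lower input over 50 ng (y axis) for the 79 ribosomal protein genes tested, by the inputs compared (x axis). Filled symbols passed an adjusted p of 0.05 (0, 19 and 21 genes, all above 0), black lines are the members' medians (0.22, 0.30 and 0.36), and grey bands hold the middle 50% of all genes tested.

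Rps29 (chr12:69157722-69159186), a zinc-binding protein near the decoding centre, measured 556, 646, 532 and 724 CPM in WT and 615, 555, 598 and 602 CPM in GFAP-IL6 at 50 ng. At 0.5 ng it measured 1127, 1186, 1054 and 1278 CPM in WT and 1376, 773, 1088 and 1324 CPM in GFAP-IL6. All 8 libraries at 0.5 ng thus lay above all 8 at 50 ng. Its log2 fold change was 0.50 (SE 0.10) at 10 ng, 0.90 (SE 0.11) at 1 ng and 0.996 (SE 0.13, adjusted p = 8.34e-05 by edgeR with BH adjustment) at 0.5 ng.

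Rps27 (chr3:90212522-90213651), another zinc-binding protein of the small subunit, measured 581, 570.2, 603 and 653 CPM in WT and 629, 551, 690.1 and 465 CPM in GFAP-IL6 at 50 ng. At 1 ng the values were 1089, 914, 1041 and 1132 CPM in WT and 1376, 953, 1165 and 1014 CPM in GFAP-IL6, again without overlap. Its log2 fold change was 0.45 (SE 0.09) at 10 ng, 0.94 (SE 0.11) at 1 ng and 0.98 (SE 0.12) at 0.5 ng.

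Rpl37 (chr15:5116645-5119140), a zinc-binding protein of the large subunit, had the largest fold change at 1 ng. It measured 468, 519.8, 483 and 562 CPM in WT and 531, 436, 477 and 400.2 CPM in GFAP-IL6 at 50 ng. At 1 ng it measured 877, 1009.8, 895 and 1026 CPM in WT and 1057, 719, 920.3 and 1033 CPM in GFAP-IL6. The lowest 1 ng library thus lay above the highest 50 ng library. The log2 fold change was 0.47 (SE 0.10) at 10 ng, 1.03 (SE 0.11, adjusted p = 1.02e-06 by edgeR with BH adjustment) at 1 ng and 0.90 (SE 0.12) at 0.5 ng.

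Rps21 and Rpl31 completed the 5 largest changes at 1 ng, with 0.91 (SE 0.11) and 0.87 (SE 0.11) on the log2 scale. At 0.5 ng their values were 0.62 (SE 0.12) and 0.92 (SE 0.14). Mean levels of Rps21 were 641, 859, 1153 and 945 CPM from the highest to the lowest input. Those of Rpl31 were 246, 312, 432 and 446 CPM in the same order.

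Rps3a1 (chr3:86137940-86142702), a protein near the mRNA exit of the small subunit, had the largest called change at 0.5 ng, with uneven values there. It measured 701, 288, 271 and 649.7 CPM in WT and 556, 817, 511 and 563 CPM in GFAP-IL6 at 0.5 ng. At 50 ng it measured 307, 307, 249 and 311 CPM in WT and 313, 265, 273 and 212 CPM in GFAP-IL6. Libraries WT replicates 2 and 3 at 0.5 ng lay within the 50 ng range, while the other 6 lay above it. The log2 fold change was 0.85 (SE 0.13) at 1 ng and 1.02 (SE 0.19, adjusted p = 0.00415 by edgeR with BH adjustment) at 0.5 ng. The call at 0.5 ng was lost without replicate 1 (adjusted p = 0.0515) and without replicate 4 (adjusted p = 0.0516). Rpl10a, which had only 44.4 CPM at 50 ng, rose by 0.96 (SE 0.24, adjusted p = 0.0373 by edgeR with BH adjustment) at 0.5 ng. Its call was lost under 10 of 15 alternatives, among them library totals (adjusted p = 0.0631), thinning (0.115) and leaving out replicate 1, 3 or 4 (0.127 to 0.314).

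**Figure D4:**
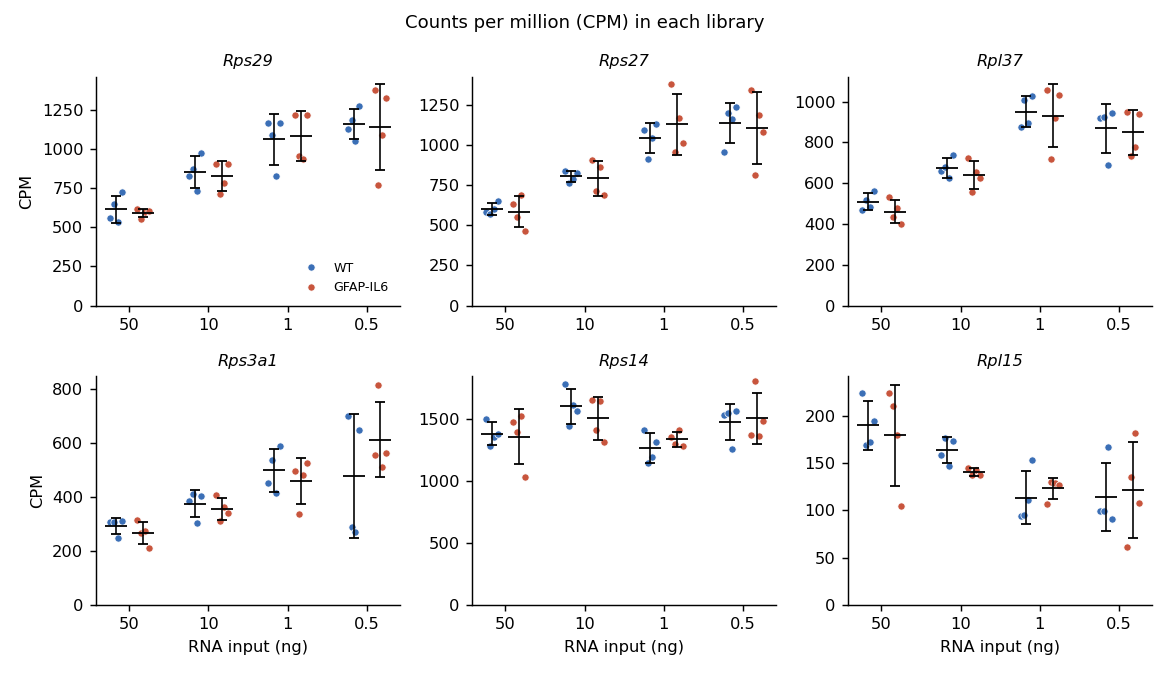
CPM (y axes, each from 0) of 6 ribosomal protein genes in every library, by RNA input in ng (x axes) and genotype (colour), with the mean ± SD of 4 libraries. Rps29, Rps27, Rpl37 and Rps3a1 have higher means at 1 and 0.5 ng than at 50 ng, Rps14 has group means between 1268 and 1602 CPM with no order by input, and Rpl15 has its highest mean at 50 ng.

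Not all members had higher values at the lower inputs. Rpl15, whose start carries a 17-base pyrimidine run, had the lowest estimate in all 3 comparisons: -0.26 (SE 0.12) at 10 ng, -0.57 (SE 0.16) at 1 ng and -0.61 (SE 0.20) at 0.5 ng. None passed, with adjusted p of 0.9997, 0.0714 and 0.159 by edgeR with BH adjustment. The value at 1 ng passed without replicate 4 of both genotypes, without GFAP-IL6 replicate 4 and by DESeq2. Its mean levels were 185, 152, 118 and 118 CPM from the highest to the lowest input, and the libraries at 0.5 ng (60.9 to 182 CPM) overlapped those at 50 ng (104 to 225 CPM). Rps14 had log2 fold changes of -0.01 (SE 0.09) at 1 ng and 0.18 (SE 0.10) at 0.5 ng, neither called, with 95% intervals from -0.20 to 0.19 and from -0.02 to 0.39. Rpl10, an X-linked late-assembling protein of the large subunit, had -0.09 (SE 0.14), -0.14 (SE 0.16) and -0.22 (SE 0.19), and none of these was called.

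The stalk proteins, which sit together on the ribosome, had unlike estimates. Rplp2 rose by 0.70 (SE 0.11, adjusted p = 0.00017 by edgeR with BH adjustment) at 1 ng and had 0.38 (SE 0.13, not called) at 0.5 ng. Rplp0, the stalk base, had 0.39 (SE 0.12) and -0.11 (SE 0.14), neither called. Rplp1 had 0.20 (SE 0.13) at 1 ng and -0.44 (SE 0.14, adjusted p = 0.134) at 0.5 ng, and its mean level was 880 CPM at 50 ng, 962 at 1 ng and 621 at 0.5 ng. Its 0.5 ng libraries ran from 433 to 831 CPM and its 50 ng libraries from 706 to 1057 CPM, so the groups overlapped. Rpsa, the laminin-receptor protein of the small subunit, had 0.10 (SE 0.14) and -0.11 (SE 0.17), neither called. The differences between these genes were not tested.

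Among the members, shorter transcripts tended to have larger input differences. Lengths are those of the longest transcript tagged as principal in GENCODE M21, or of the longest transcript where none is tagged. Their median was 886 bases over the 79 members (345 to 5179). Which transcripts were expressed in these samples was not measured. Across the members, Spearman's rho between length and log2 fold change was -0.40 at 10 ng, -0.32 at 1 ng and -0.39 at 0.5 ng. Across the genes tested that are not members it was -0.08, -0.08 and -0.03 (12487, 11185 and 11303 genes with a length). Lengths of those genes ran from 57 to 123179 bases, so the rho values of members and other genes cover unlike ranges. These points share libraries, and no p is given. Of the 11 members of up to 500 bases, 6 were called higher at 1 ng and 7 at 0.5 ng, with medians of 0.49 and 0.62. Of the 19 members above 1200 bases, 1 and 2 were called, with medians of 0.15 and 0.07. Genes of up to 500 bases that are not members had medians of 0.19 at 1 ng (81 genes) and 0.30 at 0.5 ng (78 genes). Those above 1200 bases had -0.02 (10199 genes) and -0.08 (10316 genes), so medians fell with length outside the members as well. Rps24, at 4059 bases by this measure, went against this order with 0.64 (SE 0.12) at 1 ng and 0.85 (SE 0.14) at 0.5 ng. Rplp1, at 499 bases, went against it in the other direction. The part of length in the input differences was not tested. Genes with and without the pyrimidine run at their RefSeq starts had nearly the same medians. These were 0.33 (28 genes) and 0.30 (30 genes) at 1 ng and 0.38 and 0.36 at 0.5 ng. The group without a run included Rpl37 and Rps3a1, whose windows did not hold the start of the gene in GENCODE M21. The medians therefore cannot show whether the run bears on the input differences.

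**Figure D5:**
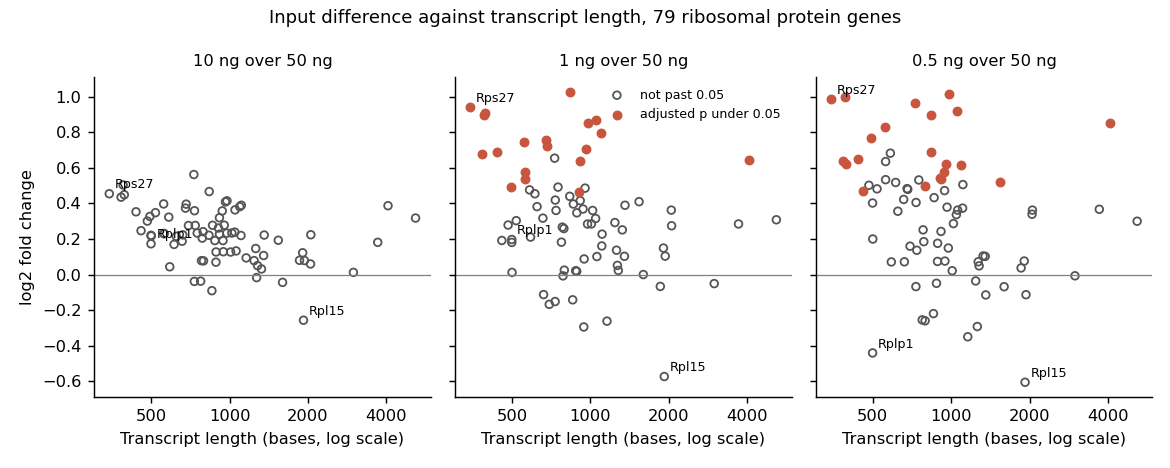
The log2 fold change of each lower input over 50 ng (y axes) against transcript length in bases on a log scale (x axes) for 79 ribosomal protein genes. Filled points passed an adjusted p of 0.05. Points at the left (short transcripts such as Rps27, 345 bases) lie mostly high and those at the right mostly low, with Rplp1 and Rpl15 as the low points at 0.5 ng.

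Within one genotype, the input differences had similar medians and fewer members were called. At 1 ng the members' median was 0.26 in WT libraries alone and 0.37 in GFAP-IL6 libraries alone, with 11 and 3 members called. At 0.5 ng the medians were 0.36 and 0.31, with 3 and 0 called. Over all genes tested at 1 ng, 27 of 10259 were called higher in WT alone and 3 of 10709 in GFAP-IL6 alone. At 0.5 ng these counts were 7 of 10071 and 0 of 10656. At 1 ng 61 of 79 members were above 0 in both genotypes, and at 0.5 ng 60 were. The genotype-by-input interaction, fitted in the same 16 libraries, called no member and no other gene at any input by edgeR with BH adjustment. DESeq2 also called no member, but over all genes it called 2 higher and 2 lower at 1 ng and 35 higher and 34 lower at 0.5 ng. In the edgeR fit 0 members had an unadjusted p under 0.05 at each input, against 1.38%, 4.17% and 6.65% of all genes tested at 10, 1 and 0.5 ng. The members' interaction estimates had medians of 0.05, 0.07 and 0.08 at these inputs, with 60, 60 and 51 of 79 above 0, and at 10 ng all 95% intervals lay between -0.66 and 0.78. Without GFAP-IL6 replicate 4 the medians were -0.025, -0.051 and -0.058, with 24, 27 and 30 above 0, so the sign of the medians rested on that library.

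In WT the spread between replicate libraries was larger at the lower inputs. Over the 78 members with a mean above 20 CPM at 50 ng, the median coefficient of variation in WT was 8.24% with 50 ng, 9.79% with 10 ng, 15.8% with 1 ng and 18.02% with 0.5 ng. With every library thinned to the lowest total it was 12.6% with 50 ng and 20.9% with 0.5 ng. In GFAP-IL6 it was 15.9%, 11.2%, 16.5% and 22.3%, and without replicate 4 the value at 50 ng was 7.98%. Counting alone would give a median of 3.06% to 5.97%, depending on the group. For 6476 other genes with a like minimum the median was 12.4% in WT at 50 ng and 50.6% at 0.5 ng. Rps9 was the steadiest member in WT at 50 ng (2.62%), and Rpl27a the least steady at 0.5 ng (66.5%).

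The remaining genes of the translation machinery were followed by lists. By genotype no gene was called at any input by edgeR with BH adjustment among 6 ribosome proteins outside the symbol rule, 8 elongation factors, 30 initiation factors, 25 ribosome biogenesis genes, 6 other TOP mRNA genes, 9 translational control genes or 76 mitochondrial ribosomal proteins tested at 50 ng. At an unadjusted p under 0.05 these lists together held 1 of 160, 9 of 160, 2 of 154 and 4 of 155 genes from the highest to the lowest input. Among all genes tested the shares were 5.63%, 7.48%, 3.59% and 2.87% in the same order. The mitochondrial ribosomal proteins had a median of -0.20 at 50 ng with 68 of 76 below 0. GFAP-IL6 replicate 4 again stood lowest, with 0.405% of counts in them against 0.618% to 0.725% in the other 7 libraries, and without it the median was -0.012 with 41 of 76 below 0.

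By input none of these genes was called at 10 ng. At an unadjusted p under 0.05 they numbered 6 of 160 at 10 ng, 26 of 159 at 1 ng and 19 of 158 at 0.5 ng, against 4.36%, 11.2% and 11.7% of all genes tested. The mitochondrial ribosomal proteins had medians of 0.06, 0.08 and 0.19 at 10, 1 and 0.5 ng, with 0, 2 and 1 called higher and 0, 1 and 0 called lower. The ribosome biogenesis genes had medians of 0.05, 0.01 and 0.01 with none called, and the other TOP mRNA genes, such as Tpt1, had 0.07, 0.09 and 0.21 with none called. Of 30 initiation factors, 2 were called higher at 1 ng (Eif3m and Eif4g3) and 1 at 0.5 ng (Eif3m, by 0.87, SE 0.22), named here after their values were seen. Eef1a1, which delivers aminoacyl-tRNA to the ribosome, fell by 1.53 (SE 0.16, adjusted p = 9.54e-07 by edgeR with BH adjustment) at 1 ng and by 1.15 (SE 0.23) at 0.5 ng, from 267 CPM ± 53.2 at 50 ng to 88.2 CPM ± 20.2 and 112 CPM ± 46.4 (SD, n = 8). Eef1g, another subunit of that elongation complex, rose by 0.68 (SE 0.18) at 0.5 ng. Whether these lists differed from the members was not tested.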

How the data were processed

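Total RNA of frontal cortex was reverse-transcribed with an anchored, indexed oligo-dT primer, pooled, amplified and tagmented, so that reads cover 3' ends. Per the labels and the study's methods, the authors trimmed poly(A) stretches, aligned reads with STAR 2.4 to mm10 and deposited counts of uniquely aligned reads per gene, made with featureCounts on GENCODE vM6. The submitters' notes list hg19, which the study's methods give for human samples only. The libraries keep strand, but whether counting used it is not given in the sources used here, so reads of overlapping antisense genes may not be separated.

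From the deposited counts, edgeR 4.0.16 (R 4.3.3; TMM scaling, filterByExpr, quasi-likelihood F test, BH adjustment over all genes tested) was fitted to 4 against 4 libraries for genotype, and to the 16 libraries of 2 inputs for input (genotype as covariate) and interaction. Intervals are 95% and come from the same fit. Calls need an adjusted p under 0.05. DESeq2 1.42.0 was an alternative, and an adjusted p it gave as NA stayed NA. The fits were tested on simulated data. No column of the table was left without a sample, and no 2 of the 48 pairs of libraries within a group held the same counts. Totals of 261378 to 9840302 counts set the precision, and limits from counts cover counting error only. Gene positions and transcript lengths come from GENCODE M21 (GRCm38), start sequences from RefSeq (GRCm38.p6).

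The members and lists were chosen with earlier results of these data known. Genes were named by rule: the 5 with the highest CPM at 50 ng, the stalk, tissue-restricted and paralogous members, the 3 largest rises and falls by genotype at 50 and 10 ng, the 5 largest called changes of each sign by input (2 of each sign where none was called), and, from other lists, called genes or the 2 with the highest CPM. Alternatives were another scaling, no filter, thinning to the lowest total, DESeq2, a replicate block, one fit of all 32 libraries, and leaving out each library or replicate number. Leaving out GFAP-IL6 replicate 4 or WT replicate 3 from the input and interaction fits was chosen after seeing the data. Values of some single genes are not reported here.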

Additional observations from a re-analysis of the deposited data

Results flagged for a closer look

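Of 239 groups of 4 libraries examined (the share of counts and the named genes' CPM), 12 held a library whose gap to its nearest neighbour took most of the group's range, and chance gives about 1 in 20. Replicate 4 of GFAP-IL6 at 50 ng was the lowest of its group for Rplp0 (205 CPM) and Rps3 (488 CPM). WT replicate 3 was the lowest for Rps3a1 at 50 ng (249 CPM), and at 0.5 ng for Rpl37 (691 CPM) and Rps14 (1263 CPM), and the highest for Rpl15 at 0.5 ng (167 CPM). At 1 ng the values that stood apart were those of Rpl27 in WT replicate 2 (lowest, 60.04 CPM), Rplp2 in WT replicate 1 (highest, 771 CPM), Rpl13a in GFAP-IL6 replicate 4 (highest, 1155 CPM) and Rpl15 in GFAP-IL6 replicate 1 (lowest, 107 CPM). At 0.5 ng Rps3 was highest in WT replicate 1 (864 CPM) and lowest in GFAP-IL6 replicate 2 (651 CPM).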

How the results depend on the processing

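Of the summary values recomputed under the alternatives, 490 stayed within their spread or within 1.5 times the reported count and 67 moved. No alternative called a member by genotype or in the interaction. At 10 ng against 50 ng, members called higher numbered 12 by DESeq2, 1 with no filter on low counts, 3 after thinning and 0 to 8 when libraries were left out. Over all genes tested these counts were 15, 1, 3 and 0 to 10. At 1 ng the members called higher numbered 11 in WT alone, 3 in GFAP-IL6 alone and 13 to 20 with libraries left out. Over all genes tested these counts were 27, 3 and 29 to 133. At 0.5 ng the members numbered 33 by DESeq2, 3 in WT alone, 0 in GFAP-IL6 alone and 9 to 17 with libraries left out. Over all genes tested these counts were 261, 7, 0 and 26 to 100, so calls outside the members moved as well. One member was called lower (1 in each case): Rpl15 at 1 ng with library totals, DESeq2 or no filter (0 to 1 with libraries left out), Rplp1 at 0.5 ng with library totals or no filter, and Rpl15 at 0.5 ng in one fit of all 32 libraries. In the same order, all genes called lower numbered 47, 148 and 140 at 1 ng and 112, 662 and 587 at 0.5 ng. Members higher by over 2-fold numbered 0 at 1 ng with library totals, no filter, thinning or WT alone (0 to 1 with libraries left out). At 0.5 ng they numbered 4 with DESeq2 size factors or DESeq2, 0 with library totals, no filter or GFAP-IL6 alone, 3 in WT alone and 0 to 4 with libraries left out. All genes higher by over 2-fold at 0.5 ng numbered 19 with DESeq2 size factors, 54 by DESeq2, 7 with library totals and 69 with no filter. They numbered 0 in GFAP-IL6 alone, 4 in WT alone and 1 to 15 with libraries left out. The interaction median at 0.5 ng ran from -0.058 to 0.11 with libraries left out. Estimates near 0 turned sign: Rpl17 by genotype at 50 ng was -0.086 after thinning and -0.062 to 0.13 with libraries left out, and at 10 ng Rps12 was -0.015 to 0.15, Rpl22 -0.066 to 0.13 and Rpl18 -0.070 to 0.14 (-0.19 after thinning). The cause of these changes was not tested, except that fewer libraries enter the fits of one genotype. Leaving out GFAP-IL6 replicate 4 or WT replicate 3 from input fits was chosen after seeing the data.

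The replicate block, with libraries of one number taken as pairs, called 40 members higher at 10 ng, 27 at 1 ng and 21 at 0.5 ng, and 1 lower at 1 ng (Rpl15) and 1 at 0.5 ng (Rplp1), with 0 above 2-fold at 0.5 ng. Over all genes tested the block called 104, 152 and 100 higher at these inputs, and 51, 72 and 133 lower. It changed no genotype or interaction count. Deviations of same-numbered libraries at 50 ng and another input correlated with r of 0.0532 to 0.536 for 10 ng, 0.0359 to 0.205 for 1 ng and 0.0197 to 0.114 for 0.5 ng. Of 8 libraries, 7, 8 and 7 correlated best with their own number, a hint from the data and not from the labels. Same-numbered WT and GFAP-IL6 libraries at one input, which differ in genotype, did so as well, with r of 0.0469 to 0.240 at 50 ng. Their own number was best in 4 of 4 pairs at 50, 10 and 1 ng and in 1 of 4 at 0.5 ng. What same-numbered libraries share was not tested.

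Outside mitochondrially encoded genes the members' share in WT and GFAP-IL6 was 3.31% and 3.10% with 50 ng, 3.78% and 3.65% with 10 ng, 3.96% and 3.91% with 1 ng, and 3.94% and 3.89% with 0.5 ng. After thinning, the median coefficient of variation was 12.6% in WT at 50 ng, 14.4% and 14.2% in WT and GFAP-IL6 at 10 ng, 17.7% and 17.3% at 1 ng, and 20.9% in WT at 0.5 ng. With libraries left out it ran from 6.16% to 8.81% in WT and 7.98% to 17.8% in GFAP-IL6 at 50 ng, 5.47% to 11.3% and 9.73% to 11.6% at 10 ng, 12.6% to 16.6% and 14.9% to 16.8% at 1 ng, and 17.4% to 18.2% and 17.4% to 23.6% at 0.5 ng. Depth limits the genes of few counts most: Rpl3l, Rpl39l and Rpl10l could not be tested.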
